A study of Mus musculus with 8 samples.

Results

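The genes described here are 8 genes of the Reelin pathway and of Cajal-Retzius cells, namely Reln, Dab1, Vldlr, Lrp8, Trp73, Lhx1, Lhx5 and Calb2. They were chosen by name, as the genes whose Ensembl identifiers map to these symbols, and they are 8 of the 48709 genes listed in the count files. This choice, and that of the lists used below, was made with earlier results of these data known. All 8 passed the filter on low counts and belong to the 16525 genes tested.

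Reelin is a large secreted glycoprotein that guides migrating cortical neurons to their layer. It binds the lipoprotein receptors VLDLR and ApoER2 (the product of Lrp8), and the receptors bring about tyrosine phosphorylation of the adaptor Dab1 by the Src family kinases Fyn and Src. Phosphorylated Dab1 recruits Crk proteins and phosphoinositide 3-kinase and is then removed through a ubiquitin ligase. In the embryonic cortex the main source of Reelin is the Cajal-Retzius cells, early-born neurons of the marginal zone that come from the cortical hem and other borders of the pallium, and many of which disappear soon after birth. The transcription factors Trp73, Lhx1 and Lhx5 and the calcium-binding protein calretinin (Calb2) are used to recognise them. None of these genes is limited to Cajal-Retzius cells: interneurons also make Reelin after birth, and calretinin, Lhx1 and Lhx5 are found in other forebrain neurons.

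The study sequenced RNA from the cortex of mice at postnatal day 3 (P3), with 4 dcKO and 4 control samples. The aim was to examine a predicted likelihood that glial cells are generated abnormally after loss of the chromatin remodeling subunits BAF155 and BAF170. BAF155 is the product of Smarcc1 and BAF170 that of Smarcc2. The labels call the groups BAF cKO and wild type, both on the C57BL/6J background. For its comparisons of brain sections the methods give the mutants as homozygous for the floxed alleles of both genes (BAF155 fl/fl; BAF170 fl/fl) with Cre, and the controls as heterozygous for both floxed alleles (BAF155 fl/+; BAF170 fl/+) with Cre, so that the controls may also carry deleted alleles. Cre was driven by the human GFAP promoter (hGFAP-Cre), which the paper describes as prominently active in radial glia of the dorsal telencephalon late in corticogenesis. Cells outside this lineage may thus have escaped deletion, which was not tested. The mutants die soon after birth. Library totals ranged from 21126713 to 32110285 counts. Replicates 1 and 2 of both groups carry the number of sequencing lane 5 in their labels, replicate 3 that of lane 6 and replicate 4 that of lane 7, and each lane thus holds both groups. The sources do not say whether samples share a litter, and the p-values below measure the spread between these samples.

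Levels are given as CPM, counts relative to library size after scaling of the libraries by TMM, a trimmed mean that makes most genes comparable between libraries. Differences are log2 fold changes of dcKO over control with their standard error (SE), and adjusted p comes from the quasi-likelihood F test of edgeR, corrected over all genes tested by the procedure of Benjamini and Hochberg. A gene is said to have risen or fallen where adjusted p is under 0.05. In this comparison 3074 genes (18.6%) rose and 3128 (18.9%) fell, together 6202 genes (37.5%), and the median change over all genes tested was 0.02 on the log2 scale. The exact two-sided permutation test of 4 against 4 samples has 70 arrangements, and its smallest possible p is 0.0286, the value of every gene whose groups do not overlap. Groups did not overlap in 34.4% of all genes tested.

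The deleted genes were lower in every dcKO sample. Smarcc1 was at 143, 161, 170.3 and 160.2 CPM in control replicates 1 to 4 and at 79.4, 73.6, 86.8 and 84.6 CPM in dcKO replicates 1 to 4. Smarcc2 was at 499.8, 471, 489 and 469 CPM in the controls and at 291, 266, 256 and 319 CPM in the dcKO samples. Both genes thus separated the groups as the labels place them, with log2 fold changes of -0.97 ± 0.08 (SE, adjusted p = 5.44e-06) for Smarcc1 and -0.77 ± 0.08 (adjusted p = 2.28e-05) for Smarcc2. These counts cover all exons of each gene and not only the floxed exons, and the tissue also holds cells outside the Cre lineage. The cortical identity of the tissue was visible in both groups: the 14 markers of cortical layer neurons summed to 3559, 3958, 4004 and 3985 CPM in the controls and to 2047, 1902, 1994 and 2191 CPM in the dcKO samples.

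Some dcKO libraries stood apart in markers of neighbouring tissue. The 10 choroid plexus markers summed to 12.7, 18.1, 9.32 and 9.57 CPM in the controls and to 633, 1201, 27.2 and 13.8 CPM in dcKO replicates 1 to 4. The high sums of dcKO replicates 1 and 2 came mainly from Ttr, the most abundant gene of the list, which encodes the thyroid hormone carrier transthyretin and was at 583 and 1127 CPM there. Counts of genes below were therefore also taken without dcKO replicates 1 and 2, an alternative chosen after the data were seen that leaves 2 dcKO samples against 4 controls. Replicates 1 and 2 are the only dcKO samples of lane 5, and the controls of lane 5 were kept. Without dcKO replicates 1 and 2, 1388 genes rose and 1581 fell.

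Of the 8 genes, 4 rose (Trp73, Lhx1, Lhx5 and Calb2), 2 fell (Dab1 and Lrp8) and 2 did not pass the test (Reln and Vldlr). The 6 genes that passed compare with the 37.5% of all genes tested, the 4 that rose with 18.6% and the 2 that fell with 18.9%. The same 6 genes were also those whose groups did not overlap. The counts were 2 genes risen (Lhx1 and Calb2) and 2 fallen (Dab1 and Lrp8) without dcKO replicates 1 and 2. In whole tissue, fewer cells of a type and less RNA per cell cannot be told apart, and this holds for every gene below.

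**Figure D1:**
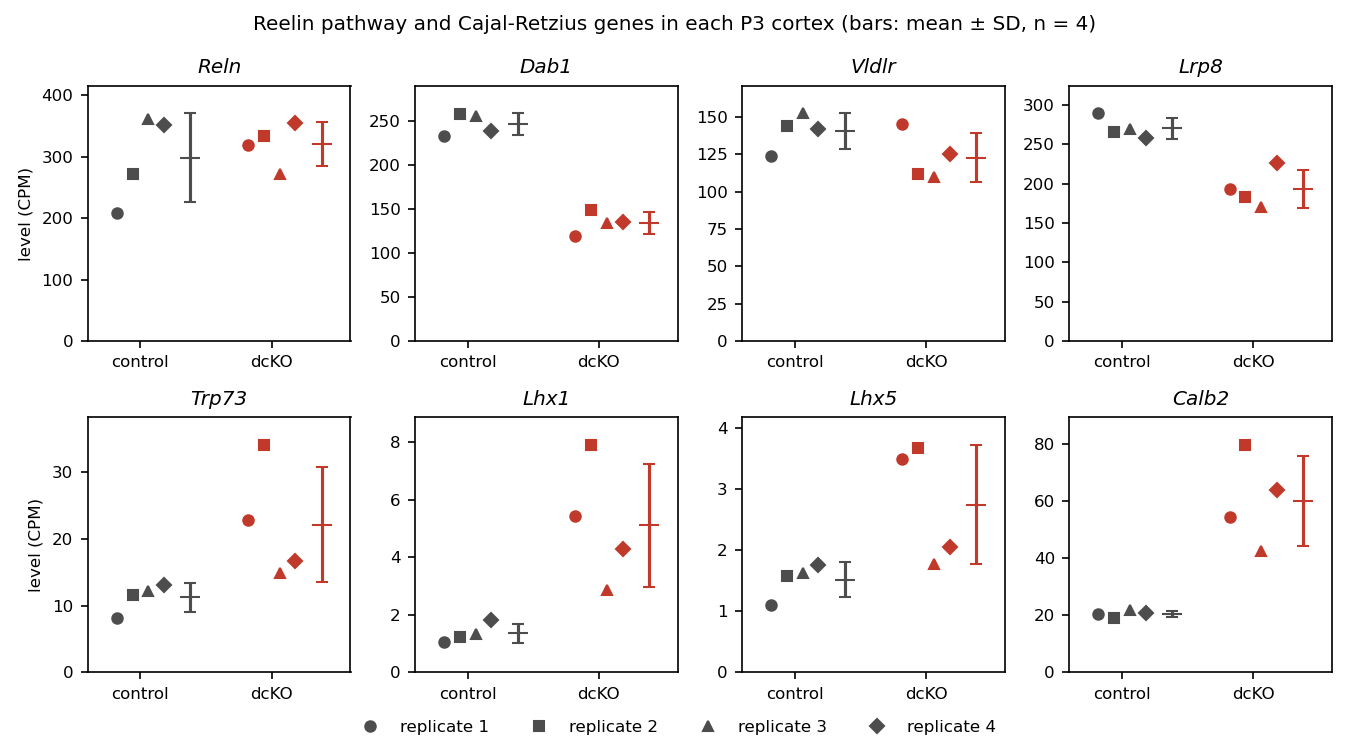
Level in CPM of each of the 8 genes in the 4 control (grey) and 4 dcKO (red) P3 cortices, with a marker shape for each replicate and bars for mean ± SD (n = 4). Dab1 and Lrp8 sit lower in all dcKO samples, Trp73, Lhx1, Lhx5 and Calb2 sit higher, and Reln and Vldlr overlap.

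Promoter sequence was at hand for 6 of the 8 genes, from RefSeq on GRCm38.p6, as windows of 300 bases that run from 250 before to 50 after an annotated start. Lhx5 and Calb2 had no entry. The windows are shown for the ligand Reln, for the adaptor Dab1, which fell, and for Trp73 and Lhx1, which rose together. Each is written 5′ to 3′ on the strand of the gene. Capitals mark any of the 4 motifs searched on both strands: the homeodomain core TAATTA, the E-box CANNTG, the GC box GGGCGG and the T-box core AGGTGT. Among 32851 promoter windows of this length, 5.29% held TAATTA, 72.3% held CANNTG, 35.7% held GGGCGG and 13.7% held AGGTGT. The E-box and the T-box core can overlap, since CAGGTGT holds both.
Reln, chr5:22344656-22344955, minus strand: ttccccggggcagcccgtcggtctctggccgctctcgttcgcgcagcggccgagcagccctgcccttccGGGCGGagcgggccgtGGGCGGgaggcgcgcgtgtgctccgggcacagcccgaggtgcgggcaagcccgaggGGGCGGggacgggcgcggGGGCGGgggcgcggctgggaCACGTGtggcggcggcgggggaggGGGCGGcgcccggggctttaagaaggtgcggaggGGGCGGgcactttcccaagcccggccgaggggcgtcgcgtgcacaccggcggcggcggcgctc
Dab1, upstream start, chr4:103619250-103619549, plus strand: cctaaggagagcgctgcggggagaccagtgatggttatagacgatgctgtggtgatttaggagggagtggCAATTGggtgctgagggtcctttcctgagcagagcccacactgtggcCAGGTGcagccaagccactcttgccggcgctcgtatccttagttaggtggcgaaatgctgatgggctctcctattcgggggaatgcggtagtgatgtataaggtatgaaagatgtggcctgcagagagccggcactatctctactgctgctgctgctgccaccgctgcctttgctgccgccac
Dab1, internal start, chr4:104367288-104367587, plus strand: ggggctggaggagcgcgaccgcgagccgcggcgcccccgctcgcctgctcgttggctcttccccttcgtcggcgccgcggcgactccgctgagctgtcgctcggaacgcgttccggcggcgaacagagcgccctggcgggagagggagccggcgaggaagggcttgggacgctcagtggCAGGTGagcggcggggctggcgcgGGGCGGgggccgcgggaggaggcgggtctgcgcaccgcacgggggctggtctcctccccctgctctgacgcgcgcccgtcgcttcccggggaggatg
Trp73, upstream start, chr4:154139826-154140125, minus strand: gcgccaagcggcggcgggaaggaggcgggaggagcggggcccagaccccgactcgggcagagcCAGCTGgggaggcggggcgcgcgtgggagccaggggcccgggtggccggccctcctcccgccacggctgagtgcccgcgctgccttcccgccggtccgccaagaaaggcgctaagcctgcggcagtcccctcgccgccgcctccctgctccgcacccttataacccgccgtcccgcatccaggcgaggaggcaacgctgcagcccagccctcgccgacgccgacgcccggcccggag
Trp73, internal start, chr4:154097124-154097423, minus strand: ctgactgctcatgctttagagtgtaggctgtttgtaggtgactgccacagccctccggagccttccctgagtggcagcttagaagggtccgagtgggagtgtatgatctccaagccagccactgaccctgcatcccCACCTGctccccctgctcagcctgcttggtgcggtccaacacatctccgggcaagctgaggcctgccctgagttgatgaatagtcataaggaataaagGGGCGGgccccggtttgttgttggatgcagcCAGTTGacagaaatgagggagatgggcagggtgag
Lhx1, chr11:84525485-84525784, minus strand: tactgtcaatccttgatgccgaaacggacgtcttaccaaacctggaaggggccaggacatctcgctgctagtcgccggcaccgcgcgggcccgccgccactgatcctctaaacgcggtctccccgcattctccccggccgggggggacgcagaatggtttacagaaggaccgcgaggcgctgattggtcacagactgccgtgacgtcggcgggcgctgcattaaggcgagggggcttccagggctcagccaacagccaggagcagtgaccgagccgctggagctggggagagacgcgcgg
The Reln window was the richest in these letters, with 6 GC boxes and 1 E-box, a GC content of 80.7% and 47 CpG dinucleotides. Across all windows the median GC content was 52.7% and the median number of CpG was 7. Of the Dab1 windows, that of the upstream start held 2 E-boxes and no GC box, with 12 CpG, and that of the internal start held 1 GC box and 1 E-box, with 46 CpG. Trp73 has an upstream start with 39 CpG and an internal start with only 6, from which the shorter p73 proteins without the transactivation domain are made; the counts per gene do not tell the products of these starts apart. The Lhx1 window held none of the 4 motifs. Such a match describes the letters of the window and no more.

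Reln, which encodes the ligand, did not change detectably. The gene (ENSMUSG00000042453, chr5:21884454-22344702 on GRCm38) was at 209, 273, 361 and 353 CPM in control replicates 1 to 4 and at 319.6, 334, 271 and 356 CPM in dcKO replicates 1 to 4. The lowest samples were control replicate 1 and, nearly equal to each other, dcKO replicate 3 and control replicate 2, and all dcKO samples fell within the range of the controls. The log2 fold change was 0.10 ± 0.16 (SE; 95% interval -0.26 to 0.46; adjusted p = 0.66), and the exact permutation p was 0.657. The estimate turned to -0.04 without control replicate 1. Within lanes 5, 6 and 7 the log2 ratio of dcKO to control was 0.44, -0.41 and 0.01, and so it did not keep 1 direction. Reln was the most abundant of the 8 genes by CPM, which owes to its length of 23738 exon bases. An antisense gene, Gm10475, shares 246 of these exon bases.

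Of the 2 receptor genes 1 passed the test. Lrp8, which encodes ApoER2 (ENSMUSG00000028613, chr4:107802261-107876840), was at 289, 266, 269 and 258 CPM in the controls and at 193, 182, 169.7 and 227 CPM in the dcKO samples. Each dcKO sample was below each control, with dcKO replicate 4 nearest to them. Its log2 fold change was -0.49 ± 0.09 (SE, adjusted p = 0.00144; exact permutation p = 0.0286). Within lanes 5, 6 and 7 the log2 ratio was -0.56, -0.67 and -0.19, and without dcKO replicates 1 and 2 the log2 fold change was -0.45 with adjusted p = 0.0396 (range over all 17 alternatives 1.56e-05 to 0.0396). Vldlr (ENSMUSG00000024924, chr19:27216484-27254231), the other Reelin receptor, was at 124, 144, 152 and 142 CPM in the controls and at 145, 112, 109.6 and 125 CPM in the dcKO samples. Here the groups overlapped: dcKO replicate 1 lay among the controls and dcKO replicate 4 just above the lowest control, while dcKO replicates 2 and 3 were below every control. The difference for Vldlr was a log2 fold change of -0.19 ± 0.10 (95% interval -0.41 to 0.02; adjusted p = 0.145; exact permutation p = 0.2). Without dcKO replicate 1 it was -0.29 with adjusted p = 0.04, and over all 17 alternatives adjusted p ranged from 0.04 to 0.601. For Vldlr the log2 ratio within lanes 5, 6 and 7 was -0.06, -0.47 and -0.18. Whether the change of Lrp8 differed from that of Vldlr was not tested.

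Dab1, the intracellular adaptor on which both receptors converge, showed the largest fall of the 8 genes. It (ENSMUSG00000028519, chr4:103619359-104744844) was at 233, 258, 256 and 239 CPM in the controls and at 119, 148, 134 and 135 CPM in the dcKO samples. The 2 groups were far apart, with little spread in either. Means were 246 ± 12.5 CPM (SD, n = 4) and 134 ± 12.1 CPM (SD, n = 4), so that the dcKO level was 0.544 of the control level. On the log2 scale the change was -0.88 ± 0.08 (adjusted p = 1.05e-05; exact permutation p = 0.0286). It was similar within lanes 5, 6 and 7, at -0.88, -0.93 and -0.82, and ranged from -0.94 to -0.76 over all 17 alternatives. Markers of cortical layer neurons, cells that respond to Reelin, fell alongside: 10 of 14 fell (71.4%, beside 18.9% of all genes tested). The list had a median log2 fold change of -0.75, and 10 of its genes also fell without dcKO replicates 1 and 2. No marker of this list rose by edgeR, DESeq2 or limma-voom, 1 was higher at an unadjusted p under 0.05, and 2 rose without dcKO replicate 2. The most abundant was Mef2c (-1.44, adjusted p = 3.99e-07). Sox5, a transcription factor of deep-layer neurons, fell too (-1.52, adjusted p = 7.61e-06). The 4 markers that did not pass, named after their values were seen, were Foxp2 (0.68, adjusted p = 0.0944), Bcl11b (0.13, 0.621), Tbr1 (0.07, 0.594) and Tle4 (-0.06, 0.651). None of the 14 markers of cortical layer neurons was at 0. The part of these cells in the fall of Dab1 and Lrp8 was not tested.

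**Figure D2:**
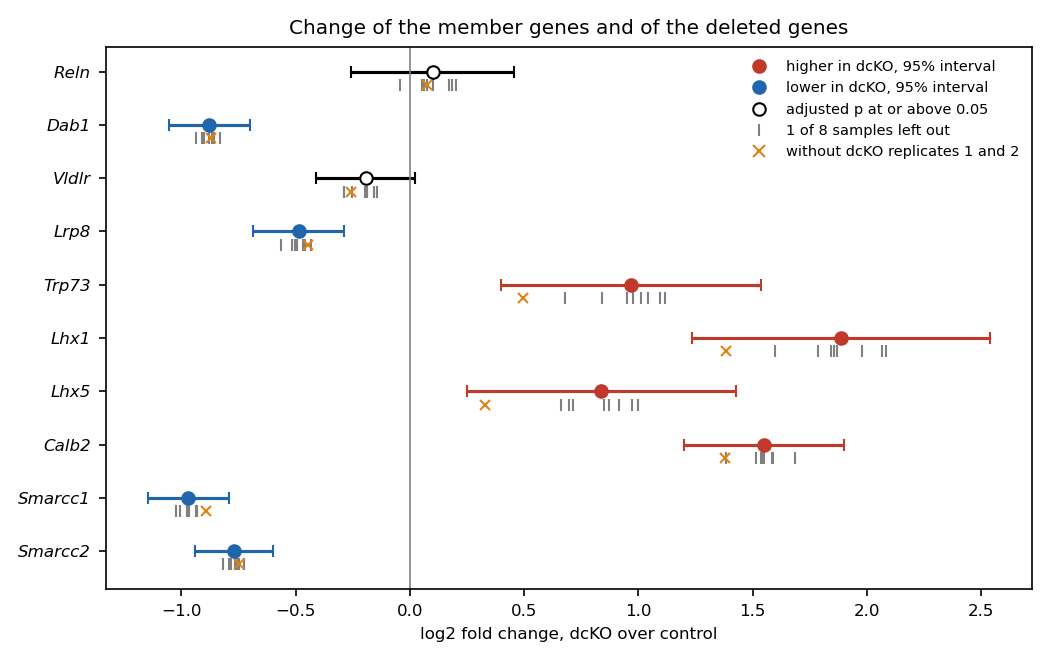
Log2 fold change of dcKO over control (horizontal axis) for the 8 genes and the deleted genes Smarcc1 and Smarcc2, with 95% intervals; grey ticks show the value with each of the 8 samples left out and crosses the value without dcKO replicates 1 and 2. Dab1 and Lrp8 stay below 0 and Lhx1 and Calb2 above 0 in each of these settings, while Trp73 and Lhx5 move towards 0 at the crosses.

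The 3 transcription factors among the 8 genes rose, but unevenly among the dcKO samples, and Trp73 and Lhx5 did not pass without dcKO replicates 1 and 2. Trp73, which encodes the p53 relative p73 (ENSMUSG00000029026, chr4:154056253-154140208), was at 8.14, 11.5, 12.2 and 13.04 CPM in the controls and at 22.7, 34.03, 14.9 and 16.7 CPM in dcKO replicates 1 to 4. The dcKO samples were all above the controls, replicates 1 and 2 by far and replicates 3 and 4 by little. Its log2 fold change was 0.97 ± 0.26 (adjusted p = 0.0144; exact permutation p = 0.0286). Within lanes 5, 6 and 7 the log2 ratio was 1.53, 0.29 and 0.36. With no filter on low counts adjusted p was 0.0669, and without dcKO replicates 1 and 2 the log2 fold change was 0.49 with adjusted p = 0.0904. Over all 17 alternatives adjusted p ranged from 0.0003 to 0.0904. The antisense gene Trp73os shares 280 of the 5534 exon bases of Trp73, and whether the counting was stranded is not given in the sources used here.

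Lhx1, a LIM homeodomain factor (ENSMUSG00000018698, chr11:84518284-84525535), was at 1.06, 1.23, 1.33 and 1.84 CPM in the controls and at 5.42, 7.92, 2.86 and 4.28 CPM in the dcKO samples. All dcKO samples were above all controls, and dcKO replicate 2 was again the highest and replicate 3 the lowest. These are low levels, with 23 to 53 counts in a control and 84 to 187 in a dcKO library. The log2 fold change was 1.89 ± 0.30 (adjusted p = 0.000519; exact permutation p = 0.0286), the largest rise of the 8 genes. Within lanes 5, 6 and 7 it was 2.54, 1.11 and 1.22, and without dcKO replicates 1 and 2 it was 1.38 with adjusted p = 0.00888 (range over all 17 alternatives 2.37e-08 to 0.00888).

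Lhx5, a LIM homeodomain factor close to Lhx1 (ENSMUSG00000029595, chr5:120431699-120441223), was at 1.10, 1.58, 1.63 and 1.77 CPM in the controls and at 3.50, 3.68, 1.77 and 2.05 CPM in the dcKO samples. The groups were barely apart: dcKO replicate 3 lay barely above control replicate 4, while dcKO replicates 1 and 2 were high. The counts were 24 to 51 in a control and 52 to 87 in a dcKO library. The log2 fold change was 0.84 ± 0.27 (adjusted p = 0.0281; exact permutation p = 0.0286), and within lanes 5, 6 and 7 it was 1.42, 0.12 and 0.21. Of the 8 genes this call depended most on the samples. Adjusted p was 0.0682, 0.0593 and 0.0572 without control replicate 1, 2 or 3, and 0.0898 and 0.091 without dcKO replicate 1 or 2, with a log2 fold change that ranged from 0.66 to 0.999 when each sample was left out in turn. It was 0.0531 with limma-voom. Without dcKO replicates 1 and 2 together the log2 fold change was 0.33 with adjusted p = 0.422, the upper end of a range that starts at 0.00857. The antisense gene Gm27199 shares 69 of its 2689 exon bases.

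Calb2, which encodes the calcium buffer calretinin (ENSMUSG00000003657, chr8:110137502-110168210), was at 20.3, 19.1, 21.9 and 20.7 CPM in the controls and at 54.4, 79.6, 42.5 and 63.6 CPM in the dcKO samples. The controls were nearly equal, and each dcKO sample was well above them. Means were 20.5 ± 1.15 CPM (SD, n = 4) and 60.02 ± 15.7 CPM (SD, n = 4), a 2.93-fold difference. Calretinin RNA thus rose by a log2 fold change of 1.55 ± 0.16 (adjusted p = 3.41e-05; exact permutation p = 0.0286), and within lanes 5, 6 and 7 it was 1.77, 0.96 and 1.62. It was 1.38 without dcKO replicates 1 and 2 (adjusted p = 0.000496; range over all 17 alternatives 1.26e-18 to 0.000496).

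With the replicate block, in which samples of the same replicate number are paired across the groups, the log2 fold changes were 0.13 for Reln (adjusted p = 0.529), -0.49 for Lrp8 (0.00246), -0.20 for Vldlr (0.19) and -0.88 for Dab1 (2.07e-05). They were 0.91 for Trp73 (0.0207), 1.81 for Lhx1 (0.000584), 0.78 for Lhx5 (0.0446) and 1.51 for Calb2 (5.85e-05). No gene of the 8 changed its direction or its side of the threshold with this block. Scaling by library totals in place of TMM moved the median of all genes by 0.12 on the log2 scale, and none of the 8 genes changed direction under it.

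Per exon length the 8 genes took a different order in the groups. In the controls the level in CPM per kilobase of exon (RPKM) was 31.1 ± 1.58 for Dab1 (mean ± SD, n = 4), 25.7 ± 1.27 for Lrp8, 13.95 ± 1.19 for Vldlr, 12.6 ± 3.03 for Reln and 11.7 ± 0.662 for Calb2. Trp73 at 2.03 ± 0.389, Lhx5 at 0.565 ± 0.107 and Lhx1 at 0.335 ± 0.0824 RPKM were the low genes. The adaptor and the receptors thus stood above the ligand in the controls, although Vldlr, Reln and Calb2 overlapped as neighbours in this order, as did Lhx5 and Lhx1. In the dcKO samples Calb2 came highest at 34.4 ± 8.98 RPKM, above Lrp8 at 18.4 ± 2.33 and Dab1 at 16.96 ± 1.53, which overlapped. Reln at 13.5 ± 1.51 and Vldlr at 12.2 ± 1.62 followed and overlapped, then Trp73 at 3.99 ± 1.56, and Lhx1 at 1.26 ± 0.525 and Lhx5 at 1.02 ± 0.364 were lowest and overlapped. No test was made between genes.

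**Figure D3:**
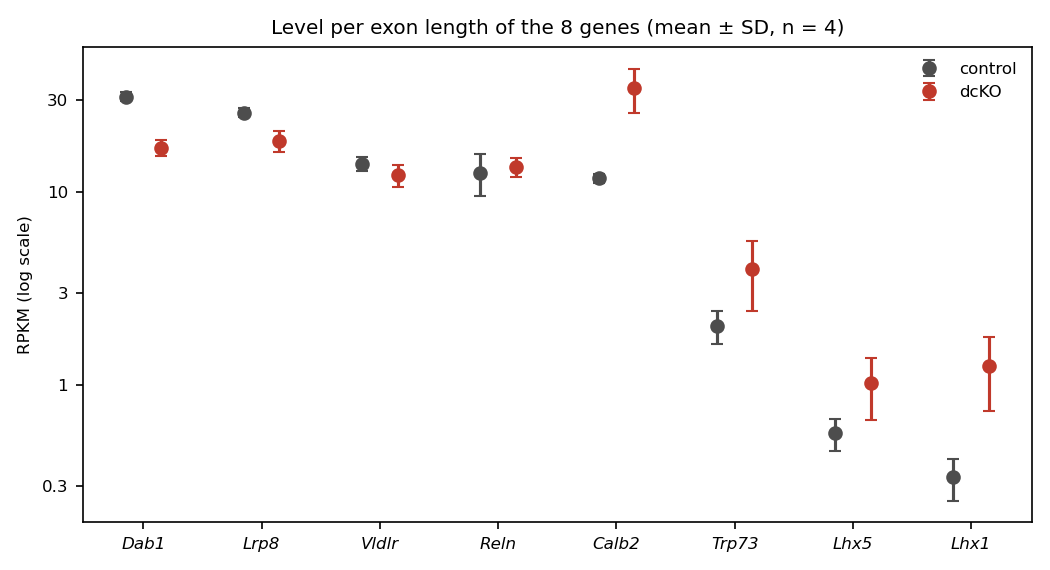
Mean level per exon length of the 8 genes in RPKM on a log axis, for control (grey) and dcKO (red) cortices, with bars for SD (n = 4). Dab1 and Lrp8 were the highest in the controls and Calb2 was the highest in the dcKO samples, at 34.4 RPKM.

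The rest of the Reelin pathway was read from 4 lists with 59 genes, all of them tested. Of these 28 fell (47.5%) and 7 rose (11.9%), beside 18.9% and 18.6% of all genes tested, and their median log2 fold change was -0.22 beside 0.02. With library totals in place of TMM 18 fell and 12 rose, with a median of -0.10 beside 0.15 for all genes. The shares of all genes given above are those with TMM, so the counts with library totals have no such share beside them. Without dcKO replicates 1 and 2 the counts were 18 fallen and 3 risen. With single samples left out 22 to 30 fell and 4 to 9 rose, 4 without control replicate 1, control replicate 2 or dcKO replicate 2.

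Among the proteases and other ligands that act on Reelin or on its receptors, 7 of 17 fell (41.2%) and 3 rose (17.6%). Of all genes tested 18.9% fell and 18.6% rose. The list had a median of -0.23. Adamts3, which encodes the main protease that cleaves and inactivates Reelin, fell from 51.1 to 24.03 CPM (-1.09 ± 0.12, adjusted p = 3.55e-05), and each dcKO sample was below each control. Of the related proteases in the list Adamts2 did not pass (-0.09, adjusted p = 0.619; named after its value was seen), whereas Adamts4 rose (0.87 ± 0.19, adjusted p = 0.0035) and Adamts5 rose (0.50, adjusted p = 0.0219), both at low levels of 10.3 and 5.85 CPM in the dcKO samples. Mylip, the ubiquitin ligase that removes VLDLR and ApoER2 from the membrane, fell from 25.1 to 10.3 CPM (-1.29 ± 0.16, adjusted p = 8.26e-05). App, the most abundant gene of the list, fell (-0.59, adjusted p = 8.02e-05), and Efnb3 rose (0.30, adjusted p = 0.0246). Without dcKO replicates 1 and 2 the counts were 5 fallen and 1 risen. Adamts5 and Efnb3 then no longer passed (adjusted p = 0.134 and 0.153), at log2 fold changes of 0.46 and 0.29. With single samples left out, Adamts5 also missed the threshold without control replicate 4 or dcKO replicate 1 (adjusted p = 0.0613 to 0.0763) and Efnb3 without control replicates 1, 2 or 4 or dcKO replicates 1 or 2 (adjusted p = 0.0592 to 0.0682), and the number risen ranged from 1 to 3.

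Among the kinases and adaptors that act with Dab1, 9 of 21 fell (42.9%) and 1 rose (4.76%), with a median of -0.19. The shares of all genes tested were 18.9% and 18.6%. With library totals in place of TMM, however, 3 genes of the list fell and 4 rose. The regulatory subunits of phosphoinositide 3-kinase moved in opposite directions. Pik3r1 fell from 312 to 168 CPM (-0.90 ± 0.09, adjusted p = 2.07e-05), while Pik3r3 rose from 54.7 to 82.2 CPM (0.59 ± 0.09, adjusted p = 0.000294). Numbl, whose product shares a phosphotyrosine binding domain with Dab1, also fell (-0.37, adjusted p = 0.00333). Of the kinases that phosphorylate Dab1, Fyn fell by a little (-0.28, adjusted p = 0.00543) and Src too (-0.22, adjusted p = 0.0305); these 2 were named after their values were seen. Without dcKO replicates 1 and 2 the counts were 4 fallen and 1 risen, and Numbl did not pass (-0.32, adjusted p = 0.063). Without control replicate 3 the number fallen was 6, the lowest with a single sample left out.

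Dab1 is removed by a ubiquitin ligase of Cul5, Rnf7 and SOCS proteins. Of the 5 genes of this list 2 fell (40%) and 1 rose (20%), beside 18.9% and 18.6% of all genes tested. The list had a median of -0.22. Rnf7, which encodes the RING subunit Rbx2, rose from 25.2 to 39.2 CPM (0.64 ± 0.11, adjusted p = 0.00114), with all dcKO samples above all controls. Socs7 (-0.44, adjusted p = 0.00275) and Cish (-0.74, adjusted p = 0.00286) fell. The counts were the same without dcKO replicates 1 and 2.

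Of the 16 genes for Lis1, Cdk5 and cytoskeletal effectors of migration, 10 fell (62.5%) and 2 rose (12.5%). Of all genes tested 18.9% fell and 18.6% rose. The list had a median of -0.36. Nectin3, a cell adhesion gene of migrating neurons, fell by the most, from 73.5 to 29.3 CPM (-1.33 ± 0.13, adjusted p = 1.16e-05). Map1b, which encodes a microtubule-associated protein, fell by 0.75 on the log2 scale (adjusted p = 0.000562), and Cdk5r2, which encodes the p39 activator of Cdk5, was at -0.68 (adjusted p = 0.000571). The rises were small, 0.35 for Pafah1b3 (adjusted p = 0.0272) and 0.26 for Cdk5 (adjusted p = 0.0328). Neither passed without dcKO replicates 1 and 2, where 7 genes fell. The log2 fold change was then 0.31 for Pafah1b3 (adjusted p = 0.142) and 0.25 for Cdk5 (adjusted p = 0.139). Both also missed the threshold without control replicate 1, control replicate 2, dcKO replicate 2 or dcKO replicate 3, and Cdk5 without control replicate 3 as well (adjusted p = 0.0502 to 0.0845 for Pafah1b3 and 0.0617 to 0.0983 for Cdk5).

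The relatives of the 8 genes moved as follows. Of 12 other genes of the lipoprotein receptor family 7 fell (58.3%) and 1 rose (8.33%), beside 18.9% and 18.6% of all genes tested. The family had a median of -0.29. The fall of Lrp8 was accompanied by those of Sorl1 (-0.96, adjusted p = 0.000106) and Lrp11 (-0.59, adjusted p = 8.43e-05). Lrp4, a receptor of agrin, rose (0.77, adjusted p = 0.000207). The counts of this family were 5 fallen and 1 risen without dcKO replicates 1 and 2. Of 10 other LIM homeobox genes 6 were tested, of which 5 rose (83.3%) and 1 fell (16.7%), with a median of 2.37. Of all genes tested 18.6% rose and 18.9% fell. Isl1 (3.43, adjusted p = 0.00217), Lhx9 (2.70, adjusted p = 4.02e-05) and Lhx8 (2.03, adjusted p = 0.0127) rose from levels of 1.39, 1.998 and 0.438 CPM in the controls. The groups overlapped for Lhx8, with dcKO replicate 2 at 0.423 CPM and control replicate 2 at 0.837 CPM. For the LIM homeobox list the counts were 4 risen and 1 fallen without dcKO replicates 1 and 2. Lhx2, a selector gene of cortical progenitors, fell from 146 to 51.2 CPM (-1.51 ± 0.15, adjusted p = 3.23e-05). In the p53 family Trp53 rose (0.38, adjusted p = 0.0116), and without dcKO replicates 1 and 2 it was at 0.36 with adjusted p = 0.0893. Trp63 had too few counts to be tested. Among 3 other EF-hand buffers Calb1, the gene of calbindin, rose from 26.7 to 65.4 CPM (1.29 ± 0.10, adjusted p = 3.20e-06), while Pvalb and Scgn were not tested, since their counts were too low.

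**Figure D4:**
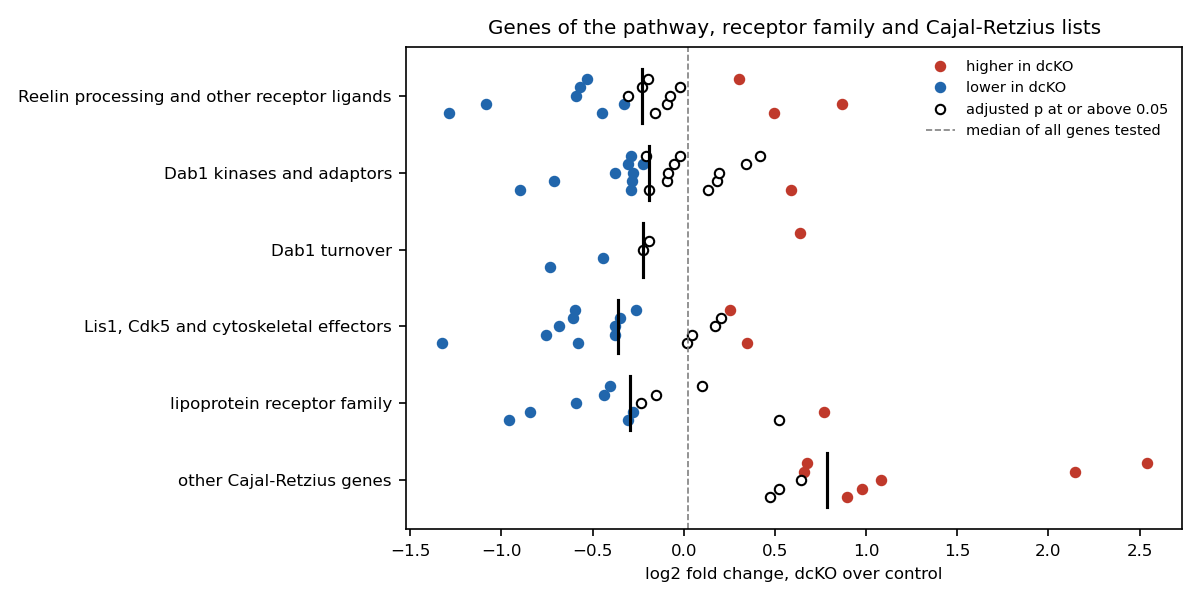
Log2 fold change of dcKO over control (horizontal axis) of each tested gene in the 4 pathway lists, the lipoprotein receptor family and the list of other Cajal-Retzius genes; black bars are list medians and the dashed line is the median of all genes tested (0.02). With TMM scaling most called genes of the pathway and receptor lists lie below 0 (for the Dab1 kinases and adaptors, 3 of 7 with library totals), and all 7 called genes of the Cajal-Retzius list lie above it.

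Of 10 other genes known from Cajal-Retzius cells, 7 rose (70%, beside 18.6% of all genes tested), with a median log2 fold change of 0.78. None fell by edgeR, DESeq2 or limma-voom, and 0 were lower at an unadjusted p under 0.05. The list summed to 172, 201, 213 and 184 CPM in the controls and to 343, 408, 273 and 330.3 CPM in the dcKO samples, with each dcKO sample above each control. Ebf3, a helix-loop-helix factor, rose from 2.93 to 17.04 CPM (2.54 ± 0.22, adjusted p = 7.24e-06). Cxcr4, the chemokine receptor that holds Cajal-Retzius cells at the pial surface, rose from 25.6 to 54.4 CPM (1.08 ± 0.15, adjusted p = 0.000216). Ebf1 also rose (2.15 ± 0.60, adjusted p = 0.0285), but it belongs to the striatal list too and its groups overlapped. It missed the threshold without control replicates 1, 3 or 4 or dcKO replicates 1 or 3 left out singly (adjusted p = 0.0516 to 0.0875). Nr2f2, the most abundant gene of the list, changed by 0.47 on the log2 scale and did not pass (adjusted p = 0.143), but did without dcKO replicate 3 (0.65, adjusted p = 0.00752). Ebf2 (0.64, adjusted p = 0.086) and Ndnf (0.53, 0.088), named after their values were seen, did not pass either. Without dcKO replicates 1 and 2 the count was 4 risen, with 2.22 for Ebf3 (adjusted p = 0.000264) and 0.83 for Cxcr4 (adjusted p = 0.00247). None of the 10 genes was at 0 in the controls.

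Some of the Cajal-Retzius genes shared an order among the dcKO samples. How common this order is among all risen genes was not tested. Of the 11 genes that rose among the 8 genes and these 10, 9 were highest in dcKO replicate 2 and 8 were lowest in dcKO replicate 3. Trp73, Lhx1, Lhx5, Ebf3 and Nhlh2 had the same order, replicate 2 above 1, 4 and 3. Nhlh2, a helix-loop-helix factor, was the gene whose profile over the 8 samples was nearest to that of Trp73. Reln was highest in replicate 4 and lowest in replicate 3, the order also of the risen gene Cacna2d2 (named after its values were seen), and it spread by 1.31-fold between its highest and lowest dcKO sample, against 2.28-fold for Trp73 and 2.76-fold for Lhx1.

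Markers of neighbouring cells and tissues followed this order in part. The choroid plexus sum was highest in replicate 2 and next in replicate 1, with 3 of 9 tested genes risen (33.3%, beside 18.6% of all genes tested risen and 37.5% called in either direction; Otx2 at 5.15, adjusted p = 0.000317; Clic6 at 3.59, 0.0428; Kcne2 at 3.38, 0.0444) and a median of 2.94; Ttr itself, at 6.998 ± 2.30, did not pass (adjusted p = 0.0568). The number risen ranged from 1 to 6 with single samples left out: Clic6 and Kcne2 missed the threshold without any 1 of the 4 controls and without dcKO replicate 1 or 2 (adjusted p = 0.0744 to 0.12 and 0.0788 to 0.12), and Ttr passed without dcKO replicate 3 or 4 (adjusted p = 0.0273 to 0.0466). In dcKO replicate 4 this sum, 13.8 CPM, lay within the range of the controls, but Otx2 was at 3.95 CPM there, above every control. The cortical hem, a source of Cajal-Retzius cells in the embryo, was covered by 12 genes. Of these 10 were tested and 5 rose (50%, beside 18.6% of all genes tested), with a median of 0.58. These genes summed to 64.05, 63.1, 75.9 and 60.8 CPM in the controls and to 98.1, 96.1, 81.3 and 83.8 CPM in the dcKO samples. Its most abundant gene, the Wnt agonist Rspo2, rose (0.68, adjusted p = 0.000879), and so did Msx1 (1.67, 0.0307) and Wnt2b (1.05, 0.00133). Msx1 missed the threshold without control replicates 1, 2 or 4 or dcKO replicates 1 or 2 left out singly (adjusted p = 0.0582 to 0.0856). Without dcKO replicates 1 and 2 together it did not pass (0.76, adjusted p = 0.239), nor did Clic6 (0.96, 0.182) and Kcne2 (0.56, 0.359). The counts were then 1 risen for choroid plexus and 4 for the hem. The part of choroid plexus and hem in the rises of Trp73, Lhx1 and Lhx5 was not tested.

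**Figure D5:**
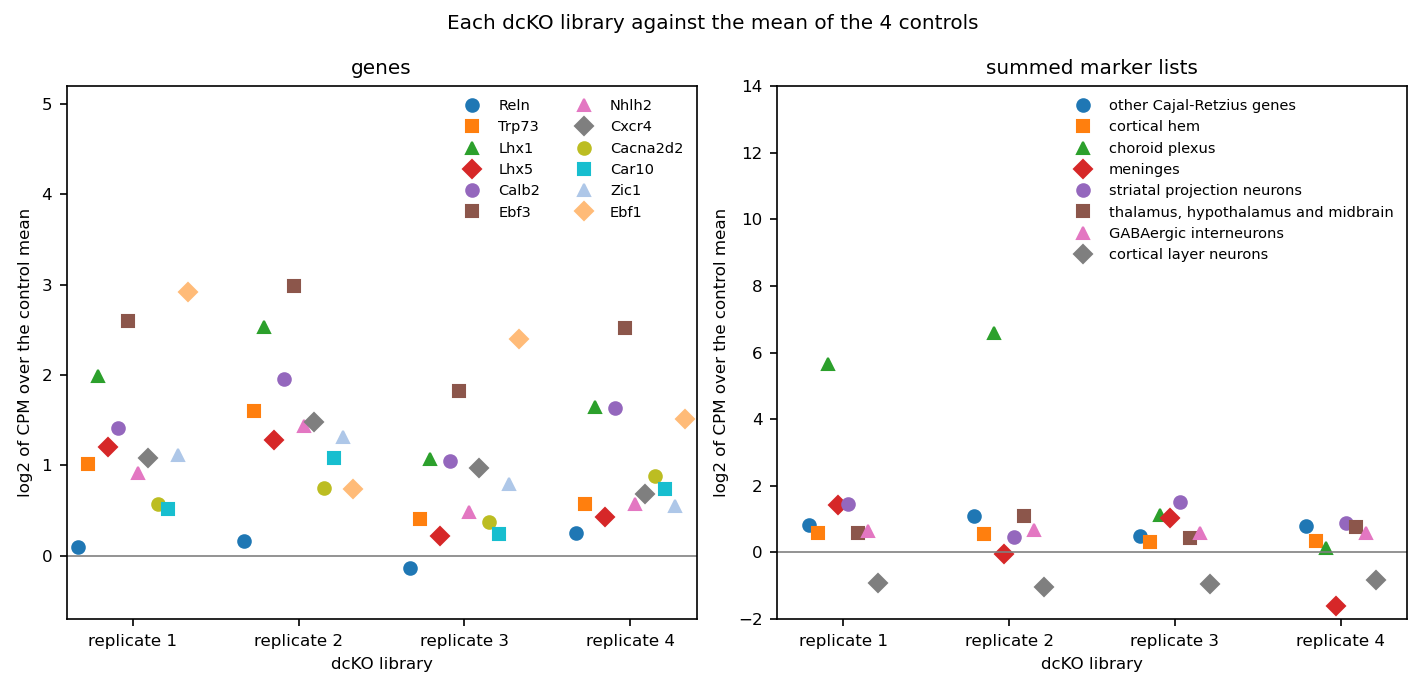
Log2 of the level in each dcKO library over the mean of the 4 controls (vertical axes), for Reln and the 11 risen Cajal-Retzius genes (left) and for summed marker lists (right), by dcKO replicate. Most of these genes peak in replicate 2 and dip in replicate 3, whereas Reln stays near 0, and the choroid plexus sum is by far the highest in replicates 1 and 2.

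Lhx1, Lhx5 and Calb2 are also expressed in thalamus, hypothalamus and midbrain, and the summed markers of these regions were higher in each dcKO sample than in any control, although the most abundant of them, Slc17a6, overlapped between the groups. Of 13 such genes 10 were tested and 9 rose (90%, beside 18.6% of all genes tested), with a median of 2.73. They summed to 67.1, 60.2, 61.03 and 54.2 CPM in the controls and to 90.4, 130.0, 81.2 and 104 CPM in the dcKO samples, highest in replicate 2 and lowest in replicate 3 as for Lhx1. Otp, a hypothalamic factor, rose at low levels (2.75, adjusted p = 0.0112), and its log2 fold change was 4.44 without control replicate 1. Without dcKO replicates 1 and 2, where 7 genes of the list rose, Otp was at 2.46 with adjusted p = 0.0905. The most abundant gene of the list, Slc17a6, did not pass (0.24, adjusted p = 0.177), and Foxb1 was at 0 in all 4 controls. The part of these regions in the rises of Lhx1, Lhx5 and Calb2 was not tested.

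Interneurons, which express Reln, and in part Calb2, after birth, were covered by 15 genes, of which 10 rose (66.7%). Of all genes tested 18.6% rose, and the median of the interneuron list was 0.49. The sum was 708, 716, 728 and 729 CPM in the controls and 1119.6, 1145, 1075 and 1075 CPM in the dcKO samples. The dcKO samples were thus all higher and nearly equal to each other. Dlx1 was the most abundant gene (0.58, adjusted p = 0.000219), and the largest rises were those of Dlx6 (1.23, 0.000151), Sst (1.02, 3.04e-05) and Gad1 (0.87, 1.44e-05). The 5 genes that did not pass, named after their values were seen, were Vip (-0.29, adjusted p = 0.272), Htr3a (-0.26, 0.197), Sp8 (-0.04, 0.875), Npy (0.17, 0.246) and Prox1 (0.27, 0.144). In the absence of dcKO replicates 1 and 2 the count was 7 risen. No gene of the list was at 0, and its part in the levels of Reln and Calb2 was not tested.

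Markers of striatal projection neurons had another order among the dcKO samples. Of 12 genes 8 rose (66.7%, beside 18.6% of all genes tested), with a median of 2.11. With single samples left out 5 to 10 of them did, 5 without control replicate 3 or 4 or dcKO replicate 1 or 3. Their sum was 329, 422, 321 and 319 CPM in the controls and 958, 478, 987 and 637 CPM in the dcKO samples, lowest in replicate 2, where most Cajal-Retzius genes were highest. Foxp1, the most abundant gene, did not pass (-0.31, adjusted p = 0.413), whereas Ppp1r1b (2.92, 4.54e-08) and Rarb (2.43, 0.0115) rose, and without dcKO replicates 1 and 2 the count was 10 risen. For the meninges, which lie over the Cajal-Retzius cells, 0 of 10 genes passed with edgeR, DESeq2 or limma-voom and 0 had an unadjusted p under 0.05, with a median of 0.69. Of all genes tested 37.5% passed with edgeR. Without dcKO replicate 4, 1 gene of the meningeal list rose. The sum was 178, 135, 328 and 125 CPM in the controls and 509, 186, 393 and 62.3 CPM in the dcKO samples, which overlapped. Its most abundant gene, Igf2, was higher by 0.59 on the log2 scale (adjusted p = 0.549). The part of the meninges in the levels of the 8 genes was not tested.

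Genes with the profile most like that of each of the 8 were sought among 14605 tested genes with a mean of at least 1 CPM, as the smallest root mean square difference between profiles of log2 CPM centred on their mean over the 8 samples. For Reln these were Zfp94 (0.1), Mtfr1 (0.102) and Mypop (0.107), with the difference in log2 units in parentheses. For Lrp8 they were Nfasc (0.019), Ndst1 (0.0407) and Csmd1 (0.0509), and for Vldlr Smg6 (0.061), Copa (0.0622) and Rps6ka2 (0.0658). The profile of Nfasc, the gene of the cell adhesion protein neurofascin, was closer to that of Lrp8 than any other gene was to one of the 8. For Dab1 the nearest were Nt5dc3 (0.0673), Bcl6b (0.0783) and Cadps2 (0.0792). For Trp73 they were Nhlh2 (0.0916), Dynlrb2 (0.137) and Lhx5 (0.149), and for Lhx5 Dynlrb2 (0.144), Trp73 (0.149) and Nhlh2 (0.16), so that Trp73 and Lhx5 were among the nearest genes of each other. For Lhx1 they were Pkib (0.239), Cd300a (0.295) and Calb2 (0.303), at larger distances. For Calb2 they were Nxnl2 (0.106), Wif1 (0.133) and Mgmt (0.194). After subtraction of the group means, which leaves only the spread within groups, Nhlh2, Lhx5 and Dynlrb2 were still the 3 nearest of Trp73. Nfasc was still nearest to Lrp8. The 3 nearest of Lhx1 became Ak8, Trp73 and Lhx5. None of the 3 genes first named for Reln, Dab1, Vldlr, Lhx1 or Calb2 was again among its 3 nearest.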

How the data were processed

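RNA was isolated with TRIZOL and sequenced by the authors from TruSeq RNA v2 libraries. The authors deposited, for each of 8 samples, raw read counts per Ensembl gene, made per the methods with featureCounts on mm10. Gene symbols, positions and exon lengths were taken from GENCODE M21 on GRCm38, which matched 48349 of 48709 identifiers. Counts were fitted in R 4.3.3 with edgeR 4.0.16 (TMM, filterByExpr with minimum count 10, robust quasi-likelihood F test, no covariate), with Benjamini-Hochberg adjustment over 16525 genes and a threshold of 0.05. RPKM used the union of exons. Alternatives were DESeq2 1.42.0, limma-voom (3.58.1), other scalings and filters, replicate and lane blocks, and each sample left out. The edgeR script was tested on simulated data. Pairs of libraries of 1 group all differed by more than sampling noise, with chi-square per degree of freedom from 9.28 to 52.99. The depth gives a floor of 3 counts, 0.0934 to 0.142 CPM by library total, for counting error only.

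The 8 genes and all 20 lists were chosen with earlier results of these data known. Named genes were taken from those a rule selects: the 8 genes, Smarcc1 and Smarcc2, in each list the called genes with a mean of at least 1 CPM and up to 3 largest rises and 3 largest falls, the most abundant gene of each marker list, and the 3 nearest profiles (log2 CPM with prior count 2). Genes outside the rule, those too low to be tested among them, were named after their values were seen. The lists overlap in 7 genes: Ebf1, Isl1, Lhx6, Lhx9, Lmx1a, Lmx1b and Sp8.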

Additional observations from a re-analysis of the deposited data

Results flagged for a closer look

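Of 40 groups of 4 samples examined for a sample far from the others (the 8 genes, Smarcc1, Smarcc2 and the 10 sums of marker lists, in each group), 2 held one, and chance gives about 1 in 20. The striatal markers summed to 422.4 CPM in control replicate 2, above the other controls by 0.9 of the range of that group. The cortical layer markers summed to 3559 CPM in control replicate 1, below the other controls by 0.896 of the range. None of the 8 genes had a sample so far from its group.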

How the results depend on the processing

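Dab1, Lrp8, Lhx1 and Calb2 kept their direction and stayed past the threshold in all 17 alternatives, with log2 fold changes of -0.94 to -0.76, -0.56 to -0.37, 1.38 to 2.08 and 1.38 to 1.68. Trp73 missed the threshold with no filter on low counts (0.96) and without dcKO replicates 1 and 2 together (0.49), and Lhx5 with limma-voom (0.74), without dcKO replicates 1 and 2 together (0.33) and without 5 of the 8 samples left out singly. Without these 2 dcKO replicates, an alternative chosen after seeing the data, 1388 genes were higher and 1581 lower, of the 8 genes 2 were higher and 2 lower, and fewer samples were compared. With single samples left out Lhx5 ranged from 0.66 to 0.999, Vldlr from -0.29 to -0.14 and Reln from -0.04 to 0.20, the last being below 0, at -0.0426, only without control replicate 1. Between 3 and 4 of the 8 genes were then higher and 2 to 3 lower, and 2199 to 3308 genes were higher and 2375 to 3273 lower. Over all 17 alternatives 1388 to 4579 genes were higher and 1581 to 3418 lower, beside 3074 and 3128 in the main fit. The cause of these changes was not tested. Of 1065 values for the 63 other genes of the lists that the naming rule selects, 996 stayed on their side of the threshold, 64 no longer passed, 5 passed that had not, and 0 reversed. Among the 8 genes, Lhx1 and Lhx5, at 23 to 53 counts per control library, are those whose precision depth limits most.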

Other observations

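Of 10 markers of multiciliated ependymal cells 8 were tested, of which 3 fell and 0 rose. The share that fell was 37.5%, beside 18.9% of all genes tested that fell and 37.5% that passed in either direction. With DESeq2 5 fell, and with single samples left out 3 to 6 did, 6 without dcKO replicate 2. The list had a median of -0.28 on the log2 scale, and the sum was 59.03, 54.5, 47.3 and 43.97 CPM in the controls and 51.8, 47.2, 39.2 and 53.9 CPM in the dcKO samples. Foxj1, the regulator of motile cilia, fell in all dcKO samples, from 14.5 to 7.65 CPM (-0.92 ± 0.12, adjusted p = 0.000147). Hydin fell (-1.09, adjusted p = 0.0122), and without dcKO replicates 1 and 2 it was at -1.25 with adjusted p = 0.0578. Ccno fell as well (-1.18, adjusted p = 0.0156) and was named after its value was seen. Ccdc39, the most abundant gene of the list, did not pass (0.35, adjusted p = 0.231). Dynlrb2, a dynein gene of ciliated cells, was higher by 0.90 on the log2 scale, and its profile was among the 3 nearest to those of Trp73 and Lhx5.

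Olfactory bulb markers rose in part. Of 9 genes 8 were tested, 5 rose (62.5%) and 1 fell (12.5%), beside 18.6% and 18.9% of all genes tested. The list had a median of 0.76. Its sum was 333, 348, 329.6 and 281 CPM in the controls and 557, 418, 467 and 479 CPM in the dcKO samples. Sp9 (1.31, adjusted p = 8.22e-06), Tshz1 (1.18, 4.24e-05) and Doc2g (0.99, 0.0011) rose by the most among the genes with a mean of at least 1 CPM, and Etv1 fell (-0.53, 0.00301). Meis2, the most abundant gene of the list, rose (0.52, 0.00269). Cdhr1, a marker of mitral and tufted cells named after its value was seen, did not pass (0.33, 0.0964). Tbx21, another marker of mitral and tufted cells, Reelin-producing neurons of the bulb, had too few counts to be tested and was named after its values were seen, at 0.552, 0.295, 0.299 and 0.555 CPM in the controls and 0.256, 0.466, 0.17 and 0.151 CPM in the dcKO samples.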
